A study of Mus musculus with 8 samples.

Results

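ASH2L is a core subunit of the KMT2 complexes, which methylate lysine 4 of histone H3, a modification typical of active promoters. Its binding sites were mapped by chromatin immunoprecipitation and sequencing (ChIP-seq) in iMEF cells, and the 209 sites described here lay at promoters of noncoding genes only. A site was included when its centre was within 1 kb of a transcription start site (TSS) of a gene that is not protein-coding and farther than 1 kb from every protein-coding TSS in GENCODE mouse release M21. The 209 sites were 3.25% of the 6428 sites on the assembled nuclear chromosomes and 6.19% of the 3377 sites within 1 kb of any TSS. A further 535 sites lay within 1 kb of both a noncoding and a protein-coding TSS and were not included. The 209 sites belonged to 185 different nearest noncoding genes, and 236 noncoding genes had such a site within 1 kb.

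All libraries came from iMEF cells, immortalised fibroblasts of mouse embryos that carried floxed Ash2l and a Cre-ER recombinase active on induction. Exon 4 of the endogenous Ash2l had been deleted, and the cells lived on a lentivirally expressed fusion of human ASH2L with FKBP12F36V, a mutant FKBP domain that dTAG binds, and an HA tag. The study worked mainly with 1 clone, and the labels do not name the clone of these libraries. The 8 libraries formed 4 groups of 2, namely ASH2L precipitates and inputs, each without dTAG or with dTAG for 1 h, where dTAG-13 is a small molecule that brings the fusion protein to a ubiquitin ligase and so to degradation. The labels name an antibody against Ash2l, whereas the paper describes one against the HA tag. The data were a single list of 6444 sites over all samples, each with a chromosome, a start and an end (mm10) and no signal. This list gives no library a value of its own, so no replicate error or read depth is given. The effect of dTAG on these sites was not analysed here, and the fibroblast identity of the cells could not be checked against marker expression. Sites are not replicates, and the p-values below describe this list, not repeated experiments.

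Noncoding genes differ widely in how they are made and used. Long noncoding RNAs (lncRNAs) are usually transcribed by RNA polymerase II from promoters built like those of mRNA genes, and many host small nucleolar RNAs (snoRNAs) or microRNAs in their introns or exons. Short structured RNAs such as the 7SL RNA of the signal recognition particle, 7SK and the Y RNAs are made by RNA polymerase III from small promoters in or just before the gene. Processed pseudogenes are copies of mRNAs inserted back into the genome and mostly lack a promoter of their own. KMT2 complexes are known for binding CpG islands, stretches rich in unmethylated CpG dinucleotides that cover many promoters. A CpG island was here a stretch of 200 bp or more in which GC content exceeded 50% and there were more than 0.6 of the CpGs its base composition predicts, computed from the genome sequence.

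The sequence under broad sites is shown by 1 window from each class of gene, each the central 200 bases of one of the 3 widest sites of its class, on the strand of the noncoding gene, 5′ to 3′, from GRCm38.p6, with every CpG in capitals. The window of C030034I22Rik, a long intergenic noncoding RNA (lincRNA), is chr17:69417296-69417495 and holds 20 CpGs. That of Gm43120, antisense to the T-box factor gene Tbx15, is chr3:99261412-99261611 with 7 CpGs. That of 9630013D21Rik, annotated as a processed transcript, is chr4:109657202-109657401 with 13. That of 9530018H14Rik, of the TEC type, which GENCODE uses for loci with evidence of transcription that await an experimental check, lies between Hoxa genes at chr6:52257213-52257412 and has 1. That of the processed pseudogene Gm10060 is chr8:19784680-19784879 with 18, and that of the microRNA gene Mir7655 in an intron of Mllt10 is chr2:18057816-18058015 with 14. The windows are not typical of all 209 sites, since every one except that of 9530018H14Rik comes from a site that overlaps a CpG island.
C030034I22Rik: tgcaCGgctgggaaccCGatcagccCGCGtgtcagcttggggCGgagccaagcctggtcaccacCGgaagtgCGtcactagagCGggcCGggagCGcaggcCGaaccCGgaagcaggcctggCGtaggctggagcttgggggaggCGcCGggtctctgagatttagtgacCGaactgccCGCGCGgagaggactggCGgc
Gm43120: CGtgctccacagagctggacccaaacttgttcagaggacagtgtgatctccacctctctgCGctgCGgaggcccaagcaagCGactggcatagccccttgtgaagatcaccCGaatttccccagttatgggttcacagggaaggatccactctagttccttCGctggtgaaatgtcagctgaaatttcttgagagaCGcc
9630013D21Rik: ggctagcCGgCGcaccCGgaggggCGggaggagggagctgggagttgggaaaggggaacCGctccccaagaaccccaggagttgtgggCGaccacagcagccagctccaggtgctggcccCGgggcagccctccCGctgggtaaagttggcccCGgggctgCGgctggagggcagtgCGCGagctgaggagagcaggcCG
9530018H14Rik: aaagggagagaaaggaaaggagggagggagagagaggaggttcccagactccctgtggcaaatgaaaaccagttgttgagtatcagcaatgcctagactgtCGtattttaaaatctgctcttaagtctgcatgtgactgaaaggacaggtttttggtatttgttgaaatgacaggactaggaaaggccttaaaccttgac
Gm10060: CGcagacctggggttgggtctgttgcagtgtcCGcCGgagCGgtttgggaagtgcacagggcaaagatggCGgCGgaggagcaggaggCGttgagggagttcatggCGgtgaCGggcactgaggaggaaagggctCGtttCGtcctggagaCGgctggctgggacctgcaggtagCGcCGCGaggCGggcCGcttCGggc
Mir7655: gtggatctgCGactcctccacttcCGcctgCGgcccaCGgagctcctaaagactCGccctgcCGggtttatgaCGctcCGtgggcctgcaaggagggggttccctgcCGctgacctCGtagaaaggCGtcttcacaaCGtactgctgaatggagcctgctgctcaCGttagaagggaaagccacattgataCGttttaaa

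The nearest noncoding gene was a lincRNA at 64 of the 209 sites (30.6%, Wilson 95% confidence interval 24.8 to 37.2%). Other lncRNA types were nearest at 38 sites (18.2%), of which 31 were processed transcripts, 5 sense intronic transcripts and 2 bidirectional promoter lncRNAs. Small RNA genes were nearest at 34 sites (16.3%), namely 16 misc_RNA, 7 snoRNA, 7 microRNA, 2 snRNA and 2 rRNA genes. Gm27694 and Gm27533 of the misc_RNA type lay by Malat1 and Neat1, and Gm27861, Gm27477, Gm27543, Gm27985 and Gm27383 in the Hoxa cluster. Whether these are separate small RNAs or parts of longer transcripts was not tested. Antisense lncRNAs were nearest at 29 sites (13.9%), pseudogenes at 23 (11.0%) and TEC genes at 21 (10.0%). Of the pseudogenes, 17 were processed, 3 transcribed unprocessed, 2 unprocessed and 1 transcribed processed. At 168 sites a single noncoding gene lay within 1 kb, and at 29 sites genes of more than 1 class did, so the class of these 29 depends on which TSS was nearest. Where every class within 1 kb was counted, the counts were 72 for lincRNA, 47 for small RNA, 44 for other lncRNA, 30 for antisense, 24 for pseudogene and 23 for TEC. Of the 34 sites nearest to a small RNA gene, 11 also had a lncRNA TSS within 1 kb.

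Membership turned on small distances at the edges. The members farthest from their noncoding TSS were those of Gm45745 at 992 bp, Mir3470a at 984 bp and Gm45640 at 964 bp. Sites of AC124526.1 at 1006 bp, Gm9302 at 1035 bp and Gm13874 at 1036 bp fell just outside. The members nearest to a protein-coding TSS were those of AV356131, 1025 bp from Pik3c2a, Hoxaas2, 1055 bp from Hoxa2, and B130024G19Rik, 1106 bp from Nr2f2. Sites at Gm15524, 968 bp from Pax9, at Gm29233, 962 bp from Thbs1, and at Junos, 940 bp from Jun, were left out for the same reason.

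The first comparison asked whether these promoters were marked by CpG islands as protein-coding promoters are. Of the 209 sites, 89 (42.6%, 36.1 to 49.4%) overlapped a CpG island, against 51.9% of all sites. Among the 3168 sites within 1 kb of a protein-coding TSS the share was 92.0%, an odds ratio of 0.0644 for the noncoding promoters (adjusted p = 2.84e-65, two-sided Fisher's exact test, Benjamini-Hochberg adjustment over 16 tests). Among the 2389 sites farther than 3 kb from every TSS it was 7.20% (odds ratio 9.56, adjusted p = 1.17e-38, same exact test). GC content told the same order, with 58 of the 209 sites (27.8%) over 55% GC, against 42.6% of all sites, 78.9% of the protein-coding promoter sites (adjusted p = 3.37e-51) and 3.14% of the sites beyond 3 kb (adjusted p = 1.04e-30, Fisher's exact test). Mean GC content was 51.1% ± 9.84 (SD over 209 sites) at noncoding promoters, 64.7% ± 10.7 at protein-coding promoters and 45.4% ± 5.46 beyond 3 kb. With islands of at least 500 bp the island share was 27.8% and the odds ratio against sites beyond 3 kb 18.3, and with gene starts only the share over 55% GC was 43.8%. The noncoding promoters were intermediate on both measures and differed from both kinds of site.

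**Figure D1:**
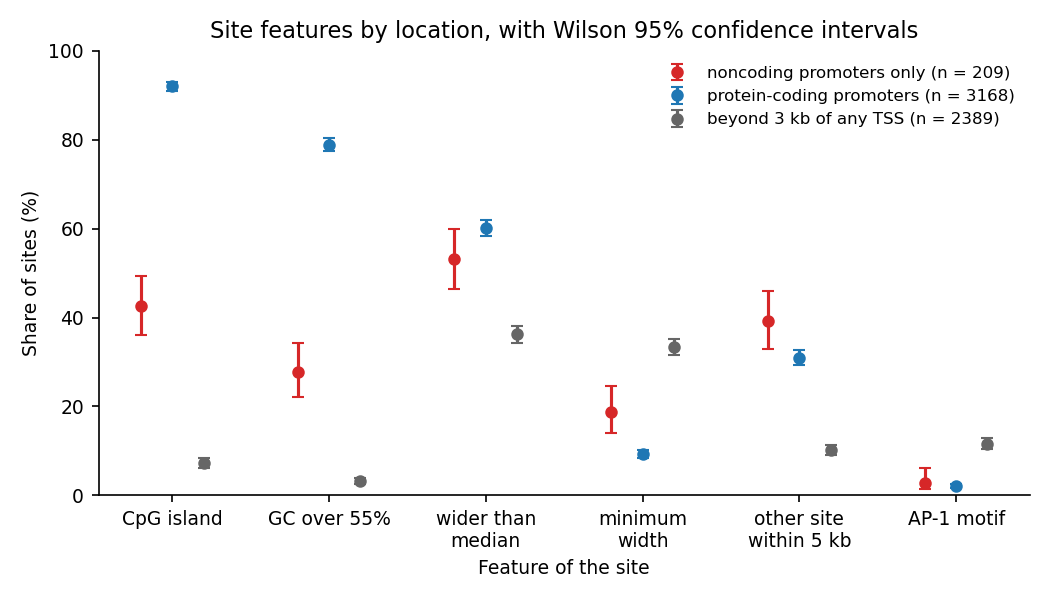
Share of sites (%) with each feature, for the 209 sites only at noncoding promoters (red), the 3168 at protein-coding promoters (blue) and the 2389 beyond 3 kb of any TSS (grey). Points are shares and bars are Wilson 95% confidence intervals. The CpG island share of the noncoding promoters, 42.6%, sits between 92.0% and 7.20%.

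Among the classes, other lncRNAs had the highest CpG island share, 23 of 38 sites (60.5%, 44.7 to 74.4%). The share was 42.9% for TEC genes, 39.1% for pseudogenes, 38.2% for small RNAs, 37.9% for antisense lncRNAs and 37.5% for lincRNAs. The intervals of these classes overlap, and differences between classes were not tested. Islands were found at every distance from protein-coding genes. They were under 16 of 37 sites (43.2%) with the nearest protein-coding TSS at 1 to 3 kb, 15 of 37 (40.5%) at 3 to 10 kb, 33 of 69 (47.8%) at 10 to 50 kb and 25 of 66 (37.9%) beyond 50 kb. C030034I22Rik, for example, had its site centre 6 bp upstream of its TSS in an island of 1106 bp, 21.9 kb from the nearest protein-coding TSS.

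Most of these sites were narrow and a few were very broad. The median width was 279 bp (quartiles 210 and 376 bp), compared with 305 bp at protein-coding promoters and 228 bp beyond 3 kb. The minimum width in the list, 200 bp, was found for 39 sites (18.7%), against 19.9% of all sites, 9.25% at protein-coding promoters (odds ratio 2.25, adjusted p = 9.97e-05) and 33.3% beyond 3 kb (odds ratio 0.459, adjusted p = 1.53e-05, Fisher's exact test). Of the 209 sites, 111 (53.1%) were wider than the median of all sites, 268 bp, where 49.8% of all sites were. This share exceeded the 36.2% beyond 3 kb (adjusted p = 6.08e-06), and its difference from the 60.2% at protein-coding promoters missed the threshold of 0.05 (odds ratio 0.75, adjusted p = 0.0562, Fisher's exact test). It passed in the exact test (odds ratio 0.662, adjusted p = 0.0168) where sites within 3 kb of a protein-coding TSS were left out. At the other end, 18 sites (8.61%) were over 1 kb wide, against 3.09% at protein-coding promoters and 0.544% beyond 3 kb. That cut of 1 kb was chosen with the widths known and was not tested. Of these 18, 17 overlapped a CpG island, and the exception was the 1066-bp site of Gm17035 in Ndrg1. A wider site has more room to overlap an island, so this count is not independent of width. Island length varied, with 200 bp at the 1178-bp site of Gm15270, 363 bp at the 2506-bp site of Gm37644 and 1910 bp at the 1278-bp site of 2900052L18Rik.

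**Figure D2:**
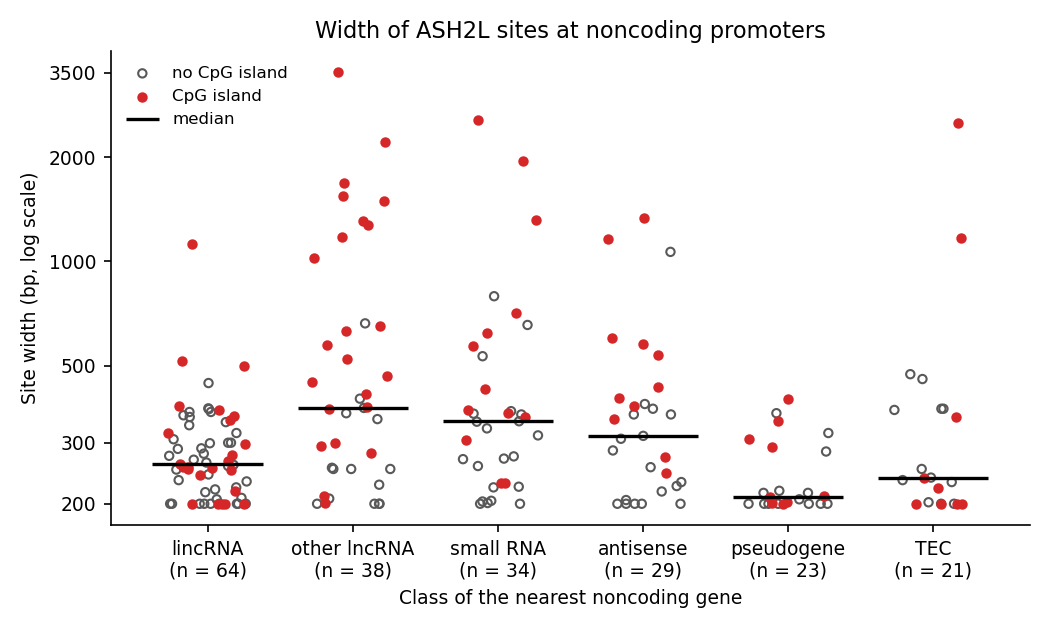
Width in bp (log scale) of each of the 209 sites by class of the nearest noncoding gene, with filled red points for sites overlapping a CpG island, open grey points for the others and a bar for the class median. Medians run from 209 bp for pseudogenes to 379 bp for other lncRNAs, and all but 1 of the 18 sites over 1000 bp are filled.

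The widest site, 3514 bp at chr11:120186468-120189981, belonged to 2810410L24Rik, a processed transcript whose nearest protein-coding TSS, that of Slc38a10, was 36.9 kb away and had no site. The second, 2560 bp at chr6:52247708-52250267, covered Gm27543 and lay within 1 kb of Hoxa11os, a noncoding RNA read opposite to Hoxa11. Next came a site of 2506 bp at Gm37644, a TEC gene inside Prrx1, which encodes a homeobox factor of limb and other mesenchyme. The fourth, 2209 bp, was at 9630013D21Rik, 8.07 kb from Cdkn2c, which encodes a cell cycle inhibitor. The fifth, 1955 bp, covered Mir7655 in Mllt10. In other lncRNAs the next widest was the 1688-bp site of Dleu2, host of microRNAs and a locus often deleted in chronic lymphocytic leukaemia. Among lincRNAs the 3 widest sites were at AL805899.1 (1127 bp), C030034I22Rik (517 bp) and Snhg6 (499 bp). Among antisense RNAs they were at AC132455.1 in Zfp36l2 (1337 bp), Gm43120 (1163 bp) and Gm17035 (1066 bp). Among TEC genes Gm37644 was followed by Gm6420 (1169 bp) and 9530018H14Rik (473 bp), and the widest pseudogene sites were at Gm21769 (401 bp), Gm45063 (365 bp) and Gm10060 (346 bp).

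How common ASH2L sites were differed by type of noncoding gene. Counting every noncoding gene with such a site within 1 kb gave 236 of 33475 genes (0.705%), and a site of any kind was within 1 kb of 2.23% of noncoding genes and of 14% of protein-coding genes. Among other lncRNAs 11.3% of 1342 genes had a site of any kind and 2.83% one of the 209. For antisense lncRNAs these shares were 6.49% and 0.98% of 2959 genes, so most of their sites, at 163 of 192 genes, were shared with a protein-coding promoter. For lincRNAs they were 1.93% and 1.04% of 5854 genes, so that 61 of the 113 genes with a site had one away from protein-coding promoters. Small RNA genes had 2.78% and 1.12% of 6084, TEC genes 2.55% and 0.528% of 3219, and pseudogenes 0.274% and 0.17% of 13523. Immunoglobulin and T-cell receptor segments had a site at 0 of 494, which allows a share of up to 0.607% (3 counts of the total). Bidirectional promoter lncRNAs, which by definition start next to another gene, had a site of any kind at 50 of 190 genes (26.3%), but at only 2 genes was it one of the 209. With a window of 3 kb the shares for a site of any kind were 0.895% for pseudogenes, 5.24% for small RNAs, 4.22% for TEC genes and 3.16% for lincRNAs. These shares count genes, and differences between classes were not tested.

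**Figure D3:**
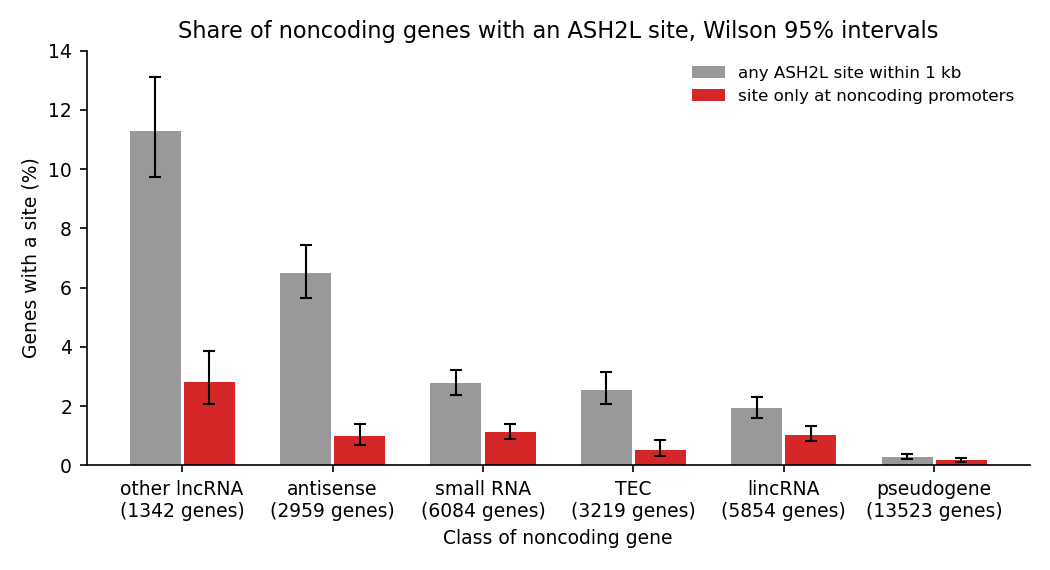
Share of noncoding genes (%) with an ASH2L site within 1 kb of a TSS, by class, for any site (grey) and for the sites only at noncoding promoters (red). Bars start at 0 and the lines are Wilson 95% confidence intervals. Other lncRNAs reach 11.3% and 2.83%, pseudogenes 0.274% and 0.17%.

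The second comparison asked where the sites lay around the TSS. Of the 209 sites, 122 (58.4%, 51.6 to 64.8%) were centred downstream of the nearest noncoding TSS, and at protein-coding promoters 67.4% of 3149 sites with a direction were (odds ratio 0.68, p = 0.00975, Fisher's exact test), with 66.8% over both kinds. Among sites of at least 300 bp the odds ratio was 0.739 (p = 0.176, exact test), and with gene starts in place of all transcript starts it was 0.279 (p = 2.73e-21, exact test). The median centre was 49 bp downstream of the TSS (quartiles 271 bp upstream and 252 bp downstream). Centres within 100 bp of the TSS made up 23.4% of the 209 sites and 40.7% of the protein-coding promoter sites. The nearest of all transcript starts was used, and 21938 protein-coding genes had 93459 of them, against 39185 for 33475 noncoding genes. Shares within 100 bp with gene starts only are not given here. Sites at noncoding promoters with a CpG island were centred downstream in 63 of 89 cases (70.8%, 60.6 to 79.2%) and those without one in 59 of 120 (49.2%, 40.4 to 58.0%). Within 100 bp of the TSS these shares were 31.5% and 17.5%, and the difference between sites with and without an island was not tested. GENCODE models of noncoding genes often rest on few transcripts, and the accuracy of their 5′ ends was not tested.

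**Figure D4:**
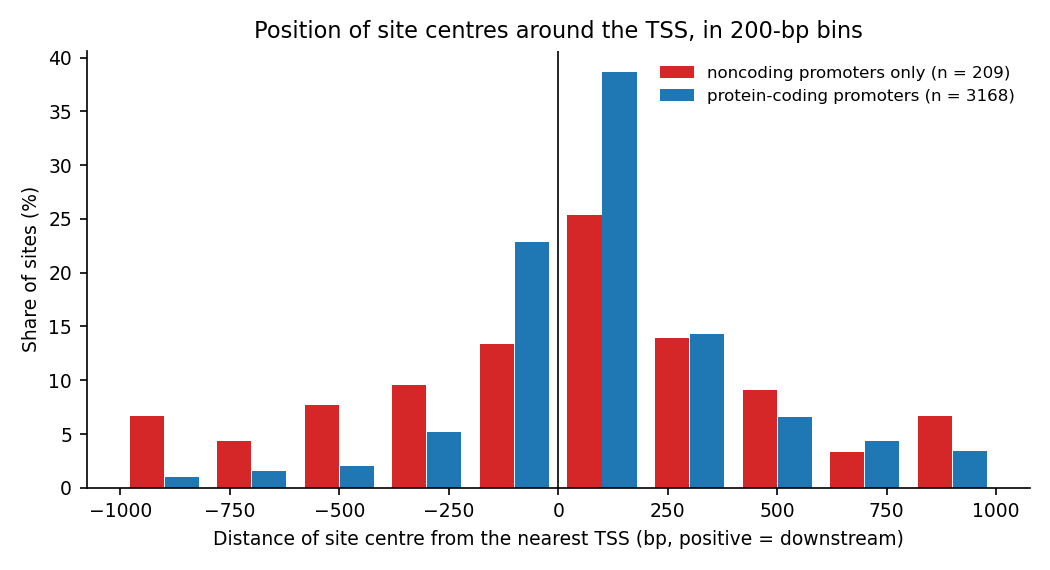
Share of sites (%) by distance of the site centre from the nearest TSS (bp, positive downstream) in bins of 200 bp, for the 209 sites at noncoding promoters (red) and 3168 at protein-coding promoters (blue). The bin from 0 to 200 bp holds 25.4% of the red and 38.7% of the blue sites, and the outermost upstream bin 6.70% and 0.979%.

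Several small RNA sites fell on genes of 1 kind, copies of the 7SL gene. Comparison of the 231 misc_RNA genes of at least 280 bases with Rn7s1, a 7SL gene of 300 bases, found 12 with an identity of 75% or more, all at or above 76.1%, while the next gene reached 38.7%. Of these 12, 7 had one of the 209 sites, 1 (Rn7s1 itself) had a site that was also at a protein-coding promoter and 4 had none within 1 kb. Of the 219 other misc_RNA genes of that length, 3 had one of the 209 sites. This group was noticed in the data, so the counts are given without a test.

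The 7 sites were 355 to 571 bp wide. Gm24105 (identity 93.9%) had a site of 571 bp, Gm22567 (91.3%) one of 533 bp, Rn7s6 (86.3%) 374 bp, Gm26461 (82.1%) 355 bp, Gm23153 (78.3%) 366 bp, Gm22701 (76.6%) 370 bp and Gm24812 (76.1%) 362 bp. All 7 sites began upstream of the gene, 122 to 162 bp before the TSS, and ended 195 to 448 bp after it. Their GC content was 47.8 to 58.2%, and 4 of the 7 overlapped a CpG island. The distance to the next site in the list ran from 30338 bp for Gm26461 to 4483445 bp for Gm24812, and was 1923271 bp for Rn7s6. The 50-base words that occur more than once in the genome made up 38.2% of the Rn7s6 site, 18% of that of Gm26461 and 11.5% of that of Gm24812, and between 0 and 2.30% of the other 4. Rn7s1 and Rn7s2 are identical over their 300 bases, and reads from them cannot be told apart. The nearest site to Rn7s2 was 4.5 kb away. Whether reads of the other 7SL copies were placed at these genes was not tested.

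A few other structured small RNAs had a site. Rny3, which encodes a Y RNA, had a site of 345 bp that began 122 bp before its TSS and covered the whole gene of 102 bases. Rnu11, the U11 snRNA of the minor spliceosome, had a site of 230 bp that covered its 134 bases. The 229-bp site at Rn7sk, the RNA that holds back the elongation factor P-TEFb, was centred 172 bp downstream and covered 69.2% of the gene, but 74.4% of its 50-base words recur in the genome and it had 5 near-identical copies elsewhere. Over the list of 17 annotated structured small RNAs and RNase components, these 3 had one of the 209 sites, 4 (Rmrp, Rpph1, Rn7s1 and Rnu12) had a site that was also at a protein-coding promoter, and 10 had none. Over all small RNA genes, 1.12% had one of the 209 sites, and over all noncoding genes 0.705%. Of the 34 sites nearest to a small RNA gene, 11 covered the whole gene, 11 part of it and 12 did not overlap it.

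**Figure D5:**
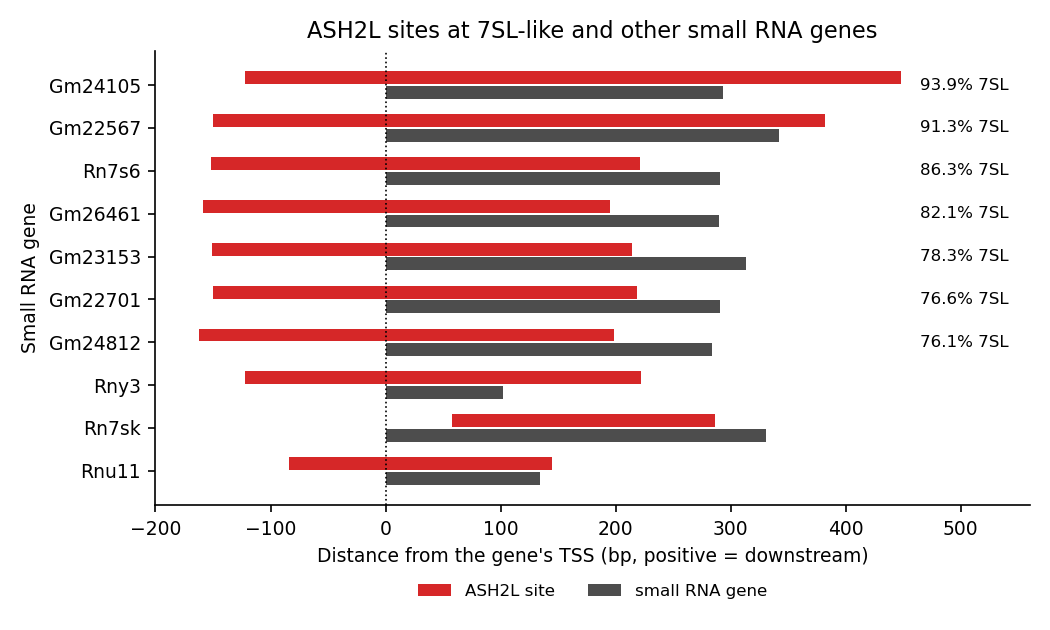
Extent of ASH2L sites (red) and of small RNA genes (dark grey) in bp from the gene's TSS (dotted line, positive downstream), for the 7 genes with 76.1 to 93.9% identity to the 7SL gene Rn7s1 and for Rny3, Rn7sk and Rnu11. The 7 upper sites begin 122 to 162 bp before the TSS, whereas the Rn7sk site lies inside the gene.

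MicroRNAs are cut from longer precursors, so a site at an annotated hairpin need not mark the start of its transcript. A microRNA gene was nearest at 7 sites, and 5 of these genes were in the RefSeq table (GRCm38.p6), with 9 mature sequences and 9 different seeds. The 571-bp site of Gm24105, described above at the 7SL-like gene of that name, was among the 7. The 5p arms of 4 of those 5 genes are shown with the seed, bases 2 to 8, in capitals, and Mir1970 is left out.
mmu-miR-125b-5p: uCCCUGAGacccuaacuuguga
mmu-let-7i-5p: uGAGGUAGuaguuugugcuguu
mmu-miR-21a-5p: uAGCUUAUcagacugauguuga
mmu-miR-7655-5p: cGGCCCACggagcuccuaaaga

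Mir125b-1, whose product is a regulator of differentiation, had a site of 794 bp at chr9:41581751-41582544 that covered the hairpin and lay 392439 bp from the nearest protein-coding TSS. This was 1 of 3 sites within 1 kb of a TSS of 3110039I08Rik, a processed transcript with 40 TSSs. Mirlet7i, a member of the let-7 family of differentiation-associated microRNAs, was covered by a site of 712 bp at chr10:122985186-122985897 in a CpG island of 1516 bp. A second site, 200 bp at D630033A02Rik, lay 305 bp from it. At Mir21a, a microRNA raised in many tumours, the site of 330 bp was centred 450 bp upstream of the hairpin at chr11:86584443-86584772, inside the UTR of Vmp1. The site of 225 bp at chr1:162217288-162217512 was 223 bp upstream of Dnm3os, an RNA read opposite to Dnm3, and within 1 kb of Mir199a-2, which it hosts.

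Among microRNA hosts, Mir17hg, which carries the growth-promoting miR-17 to 92 cluster, had 2 sites of 384 and 259 bp. The first lay in a CpG island of 2356 bp and had a GC content of 83.9%. Mir99ahg had 2 sites of 1308 and 1549 bp at separate TSSs, with the nearest protein-coding TSS 246 and 101 kb away. The longest CpG islands that these sites overlapped were only 257 and 275 bp. Of the 24 annotated microRNA hosts and microRNAs in the list, 5 (Mir17hg, Mir99ahg, Mir21a, Dnm3os and Mir199a-2) had one of the 209 sites, 1 (Mir196b) had a site also at a protein-coding promoter and 18 had none within 1 kb. Dnm3os and Mir199a-2 share 1 site. Another 4 of the 28 listed names (Mir100hg, Mir143hg, Mirlet7bhg and Mir1a-1hg) matched no annotated noncoding gene and were not counted, and 3110039I08Rik was not on the list. The share was 0.636% over all microRNA genes and 0.705% over all noncoding genes.

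Host genes of snoRNAs carry RNAs that guide the modification of ribosomal RNA. Of 16 annotated snoRNA host and growth-linked lncRNAs, 7 had one of the 209 sites (Gas5, Snhg1, Snhg5, Snhg6, Snhg8, Snhg17 and Snhg20), 3 (Snhg3, Snhg9 and Zfas1) had a site also at a protein-coding promoter and 6 had none. For the noncoding genes as a whole the share with one of the 209 sites was 0.705%, and the list was chosen with earlier results of these data known. Snhg17 had a site of 376 bp centred 6 bp downstream of its TSS in an island of 623 bp, and Snhg20 one of 372 bp centred 49 bp downstream in an island of 851 bp. Snhg8 had a site of 430 bp nearest to Snora24, the snoRNA it carries. The site of 656 bp at Gas5, a growth-arrest transcript with many snoRNAs, lay outside any CpG island, had 8 noncoding genes within 1 kb and was nearest to the snoRNA Gm23212. The site at Snhg1 had the minimum width of 200 bp and was nearest to the snoRNA Gm24453, with 8 noncoding genes within 1 kb. The snoRNA gene Snord49b, inside the processed transcript 2410006H16Rik, had a site of 622 bp centred 18 bp downstream of its 5′ end. Snhg5 and Snhg6 each had 2 sites, of 200 and 201 bp and of 446 and 499 bp.

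Malat1, an abundant nuclear lncRNA that gathers in splicing speckles, had the most sites of any noncoding gene, 6, between 5796341 and 5802346 on chromosome 19. These 6 sites together spanned 1628 bp of sequence and were 200 to 355 bp wide. With the sites nearest to Gm27694 and Gm37376, 9 of the 209 sites lay within these 6.01 kb, and only 2 of the 9 overlapped a CpG island. Neat1, the scaffold of paraspeckles next to Malat1, had a site of 321 bp centred 67 bp upstream of its TSS in an island of 803 bp, and the 1316-bp site of Gm27533 lay 778 bp from it. Chromosome 19 had the highest density of these sites, 14 sites or 0.228 per Mb, and 11 of the 14 lay in the 49.1 kb from Malat1 to Neat1. Second was Gm10748, a TEC gene 2.91 kb and more from Zfhx4, with 5 sites of 200 to 458 bp and no CpG island. Hoxaas2 and 6 other genes, among them Hottip and Rmst, had 3 each.

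Among abundant lncRNAs, Jpx, an activator of Xist, had a site of 200 bp centred 58 bp downstream of its TSS in an island of 841 bp. Dleu2 had 2 sites, of 1688 and 450 bp. Rmst, a regulator of neural differentiation, had 3 sites of 200 to 349 bp, 1 of them nearest to Gm26700. Of 21 annotated genes of this list, 5 (Malat1, Neat1, Dleu2, Jpx and Rmst) had one of the 209 sites, 1 (Tug1) had a site also at a protein-coding promoter and 15 had none, where 0.705% of all noncoding genes had one of the 209. Xist was among the 15 with none.

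The Hoxa cluster held 11 of the 209 sites within 102 kb, as many as the neighbourhood of Malat1 and Neat1. Hoxaas2, which lies between Hoxa genes, had 3 sites of 632, 402 and 1026 bp, and Hottip, a lncRNA at the 5′ end of the cluster known to bind the KMT2 complex subunit WDR5, had 3 of 346, 252 and 274 bp shared with the misc_RNA genes Gm27985 and Gm27383. Hoxa11os had 2, of 380 and 2560 bp. Dlx6os1, an antisense RNA of the Dlx5 and Dlx6 locus, had a site of 314 bp outside CpG islands. Of 28 annotated Hox and developmental antisense lncRNAs, these 4 had one of the 209 sites, 2 (Emx2os and Zeb2os) had a site also at a protein-coding promoter and 22 had none, where 0.705% of all noncoding genes had one of the 209.

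Sites of antisense lncRNAs mostly lay inside a protein-coding gene. For 24 of their 29 sites the centre lay in a protein-coding gene body, and 13 of the 29 were within 3 kb of a protein-coding TSS. Named examples were Sox6os in Sox6, Egfros in Egfr, Runx2os2 in Runx2 and Junos in the coding sequence of Jun. The Junos site of 404 bp lay 1496 bp from the Jun TSS and 48 bp from the next site. Over all 209 sites, 57 centres (27.3%) fell in a protein-coding gene body, 44 of them in introns, 8 in UTRs, 4 in coding sequence and 1 in another exon, and the noncoding gene was on the opposite strand in 41 of the 57.

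The nearest protein-coding gene had a promoter site of its own for 80 of the 209 sites (38.3%), and 14% of all protein-coding genes had one. The first share counts sites and the second counts genes, so they are unlike measures. A gene nearest to several sites, such as Zfhx4 or Hoxa2, enters the first share once for each site. The share was 73.0% (27 of 37) at 1 to 3 kb, 43.2% at 3 to 10 kb, 31.9% at 10 to 50 kb and 22.7% (15 of 66) beyond 50 kb, and differences between these distances were not tested. The nearest genes of those 27 sites included Twist2, Nr2f2, Tead1, Ccn2, Zfp703, Sobp, Hoxa2, Hoxa11 and Hoxa13. Another site lay within 5 kb of 82 of the 209 sites (39.2%), against 25.5% of all sites, 31.0% at protein-coding promoters (odds ratio 1.44, adjusted p = 0.0226, Fisher's exact test) and 10.2% beyond 3 kb (odds ratio 5.7, adjusted p = 1.12e-24). The difference from protein-coding promoters did not hold where 1 site was taken for each noncoding gene (32.4%, odds ratio 1.07, adjusted p = 0.684) or where sites within 3 kb of a protein-coding TSS were left out (32.0%, odds ratio 1.04, adjusted p = 0.8, exact tests).

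Binding motifs were searched as exact letters on both strands in the central 200 bp. AP-1, the family of Jun and Fos, is TGACTCA or TGAGTCA. ETS factors are given as CCGGAAGT and SP/KLF factors as CCCCGCCCC. An AP-1 match was found at 6 sites (2.87%), among them Egfros and AL805899.2, against 6.14% of all sites, 11.6% beyond 3 kb (odds ratio 0.224, adjusted p = 2.82e-05, Fisher's exact test) and 2.08% at protein-coding promoters (odds ratio 1.39, adjusted p = 0.452). No site of at least 300 bp at a noncoding promoter held an AP-1 match. An ETS match was found at 3 sites, of Snhg20, C030034I22Rik and 5530601H04Rik (1.44%, against 2.92% of all sites), and an SP/KLF match at 3 others, of Gm6420, 3110039M20Rik and Zswim6 (1.44%, against 3.02%). Both shares were below the 5.59% found for either motif at protein-coding promoters (odds ratio 0.246, adjusted p = 0.00891 for each, exact tests). Beyond 3 kb the ETS share was 0.251% (adjusted p = 0.0369) and the SP/KLF share 0.377% (adjusted p = 0.07, exact tests). With 3 matches each, these shares have intervals of 0.489 to 4.13%, and both differences from protein-coding promoters miss the threshold for sites of at least 300 bp (adjusted p = 0.529 and 0.269, exact tests). The ETS difference from sites beyond 3 kb missed it with gene starts only (adjusted p = 0.15), and the SP/KLF difference passed there (adjusted p = 0.0178, exact tests). A match describes the letters only.

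Some sites, mostly of pseudogenes, had near-identical copies. Of the 209 sites, 11 (5.26%, 2.96 to 9.18%) had a copy of at least 90% identity over at least 80% of the site elsewhere in the genome, against 0.694% at protein-coding promoters and 1.21% beyond 3 kb, and 8 of the 11 were at pseudogenes. A recurring 50-base word was found in 30 sites (14.4%, against 5.33% at protein-coding promoters and 10% beyond 3 kb). Such words made up over 50% of 6 sites (2.87%, against 0.0947% and 0.753%). The most copies, 27, were found for Gm17153, followed by Gm14303 with 11 and Gm13456 with 10. Gm10060, Gm21769 and 2610005L07Rik on chromosome 8 had sites of 346, 401 and 307 bp in CpG islands of 990 to 996 bp. They had 5, 6 and 5 such copies. In pairwise alignments matched bases were 84.1% of the shorter site for Gm10060 and Gm21769, 85.7% for Gm21769 and 2610005L07Rik and 52.1% for Gm10060 and 2610005L07Rik. These shares also depend on where each site begins and ends, so they are not the identity of the copies. Reads from such copies could not be separated here. Without these 11 sites the CpG island share was 41.4% (odds ratios 0.0608 and 9.05) and the downstream odds ratio 0.659. No such copy was found for the other pseudogene sites, among them that of 1810014B01Rik in an island of 645 bp. The search could not assess the fully repeat-masked site of Gm5597, in which 87.4% of the 50-base words recur in the genome. Of all 209 sites, 10 lay in repeats over more than 50% of their length (4.78%, against 0.347% at protein-coding promoters and 12.1% beyond 3 kb). RefSeq placed an mRNA TSS within 1 kb of 5 sites, those of Gm13572, Gm45745, Gm10033, Zswim6 and Gm5165, and a tRNA gene within 1 kb of 3, those of 4930555B11Rik (2 bp), B230208H11Rik and Trmt61b (1.44%, against 0.537% and 0.502%).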

How the data were processed

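ChIP-seq was performed by the authors. According to the methods and labels, reads were aligned to mm10 with BWA, replicates were merged, and narrow peaks were called with MACS2 (tool names per the submitters' processing notes, versions not given in the sources used here). The deposited list used here holds genomic positions only (chromosome, start and end), with no count, score or signal, so the planned comparison with and without dTAG and its alternatives were not run. Start positions were taken to be 0-based, which makes the smallest width 200 bp, and coordinates are printed 1-based. Sites were represented by their centre. TSSs came from GENCODE M21, whereas the authors used a later release, and sequence from RefSeq GRCm38.p6. Distances, CpG islands, motifs and near-identical copies (blastn, BLAST 2.17.0, seeds of 28 bases outside repeats) were computed with SciPy 1.17.1, pandas 2.3.3 and NumPy 2.4.6 under Python 3.11.15, and plots were drawn with matplotlib 3.10.9. The blastn search did not assess fully repeat-masked sites, so 50-base words were scanned as well. Similarity to Rn7s1 was global alignment identity over the shorter sequence. Shares have Wilson 95% intervals, which cover counting error only, and 8 features were compared with 2 other kinds of site by Fisher's exact test (16 tests, Benjamini-Hochberg). The functions were tested on simulated data. The genes named were those of 5 lists with such a site, the widest sites overall (5), per class (3) and at small RNAs (10), the genes with most sites, sites at the thresholds and those with most copies. Listed names that matched no annotated noncoding gene (4 of 20 snoRNA hosts, 3 of 24 abundant lncRNAs, 4 of 28 microRNA hosts and microRNAs, 6 of 34 Hox and developmental RNAs and 1 of 18 structured small RNAs) were not counted. Members and lists were chosen with earlier results of these data known. Other genes were named after their values were seen. Sequences at the 7SL-like genes are not reported here.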

Additional observations from a re-analysis of the deposited data

Results flagged for a closer look

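Outside the data compared above, 16 sites of the list lay off the 21 assembled nuclear chromosomes and were not analysed. Of these, 3 were on the mitochondrial genome (1821 bp together) and 13 on 9 unplaced, patch or alternate sequences (4790 bp together). They have no signal value, and no control list was at hand, so their source was not tested.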

How the results depend on the processing

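Of 139 alternative values with a test, 123 kept their direction and side of the threshold (73 planned, 50 chosen after seeing the data) and 1 reversed, AP-1 against coding promoters, whose odds ratio was 0 (adjusted p = 0.536, exact test) for sites of at least 300 bp, where no member held a match. Of 29 counts and shares without a test, 18 stayed within 1.5 times the main count or, for a share, within its interval. The number of sites ranged from 167 without TEC genes and pseudogenes to 286 with windows of 2 kb. Differences in CpG islands, GC content and minimum width, and that in AP-1 from sites beyond 3 kb, kept their calls in every alternative run. With islands of at least 500 bp the island share was 27.8% and its odds ratio against sites beyond 3 kb 18.3, and with gene starts only 43.8% of sites had over 55% GC and the downstream odds ratio was 0.279. Values below are odds ratios with p from Fisher's exact test, and the cause of these moves was not tested. With members farther than 3 kb from protein-coding TSSs, width above the median against coding promoters gave 0.662 (adjusted p = 0.0168), SP/KLF against sites beyond 3 kb 4.69 (0.0477, exact tests), and a neighbour within 5 kb against coding promoters 1.04 (0.8). With 1 site per gene the last was 1.07 (0.684). With gene starts only, ETS and SP/KLF against sites beyond 3 kb gave 2.6 (0.15) and 3.2 (0.0178). Against coding promoters, ETS and SP/KLF gave 0.396 (0.133) and 0.262 (0.0616) at lncRNA genes, 0.529 (0.529) and 0.341 (0.269) for sites of at least 300 bp, and 0.309 (0.11) and 0.569 (0.485) in 100-bp windows. ETS against sites beyond 3 kb had no odds ratio for sites of at least 300 bp, as no comparison site held a match. In 100-bp windows ETS and SP/KLF gave 4.61 (0.118) and 8.68 (0.0225) against sites beyond 3 kb. The downstream share for sites of at least 300 bp gave 0.739 (p = 0.176, exact test). With 500-bp and 3-kb windows the share of genes with a site was 1.47% and 3.16% for lincRNA, 5.04% and 8.08% for antisense, 8.72% and 13.3% for other lncRNA, 1.68% and 4.22% for TEC and 1.79% and 5.24% for small RNA, and with 3 kb it was 0.895% for pseudogenes.

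No paired analysis was possible because the list used here has no value per library, so the dTAG comparison, its replicate block and the values without each replicate were not run. Depth is unknown for the same reason. A site's presence, width and position rest on merged reads and on the annotation used.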
